A study of Mus musculus with 12 samples.

Results

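Kinins, prostaglandins and nitric oxide are short-lived mediators of inflammation that change vessel tone, pain and the behaviour of nearby immune cells. Bradykinin acts on a B2 receptor that many cells carry at rest and, through its shortened peptides, on a B1 receptor that cells make mainly after injury or cytokine exposure. Prostaglandins start from arachidonic acid, which the cyclooxygenases convert to prostaglandin H2 and the terminal synthases turn into products such as prostaglandin E2. Inducible nitric oxide synthase makes nitric oxide from arginine and is known for its strong induction by cytokines in macrophages and in many other mouse cells.

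The 8 genes described here are Bdkrb1 and Bdkrb2 (the bradykinin receptors B1 and B2), Ptgs1 and Ptgs2 (the cyclooxygenases), Ptges (microsomal prostaglandin E synthase), Ptger4 (the prostaglandin E2 receptor EP4), Hcar2 (a receptor for niacin and ketone bodies) and Nos2 (inducible nitric oxide synthase). They were taken by their gene symbols, and all 8 were present in each of the 5 tables of comparisons, among 14097 genes listed in all 5 and 16399 listed in any. They were chosen by pathway with their log2 fold changes and adjusted p-values in these comparisons known. Their adjusted p-values are therefore given as the tables hold them, as a description, and are no independent test of a change in this set.

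The RNA came from fragments of 40 to 100 µm from tumours of MC38, a colon carcinoma line of the mouse, in the C57BL/6 albino strain, dissociated fresh and held in collagen at 2.8 mg/mL in microfluidic culture chips for 6 days with 300 µL of treated medium per well. The groups of 3 samples each received an antibody to the T cell inhibitory receptor PD-1 (clone RMP1-14, 10 µg/mL; aPD-1), the same antibody with a CD8 antibody (clone 53-6.7, 10 µg/mL; aPD-1+CD8), interferon-gamma protein (100 ng/mL; IFNg), or a control antibody (clone 2A3, 10 µg/mL; IgG). For IFNg no antibody is named. Whether a group's samples stem from different tumours, animals or chips is not stated, so the standard errors and p-values measure only how far these samples spread, possibly for technical reasons. In such bulk cultures, fewer cells of a type and less RNA per cell cannot be told apart.

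The deposited values are, per gene and comparison, a mean normalized count over the 6 libraries of both groups and a log2 fold change (first group over second) with its standard error (SE), score, p and adjusted p. Single libraries are not analysed here. The mean counts summed to between 10292941 and 11590748 over the 5 tables. Transcripts of the T and NK cell list and of the epithelial list were scarce. Whether MC38 cells express these epithelial markers was not tested, so low counts do not give the share of tumour cells. The T and NK cell list summed to between 2.80 and 7.67 mean counts over the 5 tables, and 0 of the 10 epithelial markers reached a mean count of 10 in any table, Epcam standing at 0.152 for aPD-1 v IgG in the authors' deposited table. The fibroblast list had a summed mean count of 6382 in aPD-1 v IgG against 2649 in aPD-1+CD8 v IgG. In aPD-1 v IgG most of it came from Dcn (1764), Col3a1 (1634), Col1a1 (1606) and the receptor genes Pdgfra (779) and Pdgfrb (579). Other genes of the list were low there, with Col1a2 at 13.5, Dpt at 4.63, Postn at 1.59 and Lum at 1.55, in the authors' deposited table.

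With PD-1 antibody, 6 of the 8 genes were higher than with IgG at an adjusted p under 0.05, where 8.50% of the 12024 tested genes were (18.5% changed in either direction). These were both kinin receptors, Ptgs2, Ptges, Hcar2 and Nos2. Ptgs1 did not pass, and Ptger4 had too few counts for an adjusted p. The median log2 fold change of the 8 was 1.59, beside 0.01 over all genes. With the CD8 antibody added, 5 of them (all but Bdkrb2) were lower than with PD-1 antibody alone, where 6.94% of tested genes were (14.8% in either direction), and the median was -1.05, beside -0.02 over all genes. Against aPD-1, IFNg left 3 lower, Bdkrb1, Bdkrb2 and Hcar2, where 7.13% of tested genes were (15.5% in either direction). No member passed in aPD-1+CD8 v IgG, where 0 of 15304 tested genes did (57 at an unadjusted p under 0.05, DESeq2), or in IFNg v IgG, where 4.10% of 11478 tested genes passed, 2.73% higher and 1.38% lower, and 5 of the 8 had no adjusted p. With an empirical null, which widens the score's null spread to that of all genes, 3 in place of 6 passed in aPD-1 v IgG and 3 in place of 5 in aPD-1+CD8 v aPD-1, the 3 being Bdkrb1, Hcar2 and Ptgs2 in both. Because the choice of genes used these contrasts, nothing is read from these shares. The first 3 comparisons share the IgG samples, and the aPD-1 samples enter 3 comparisons as well, so the pattern over comparisons is not independent.

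**Figure D1:**
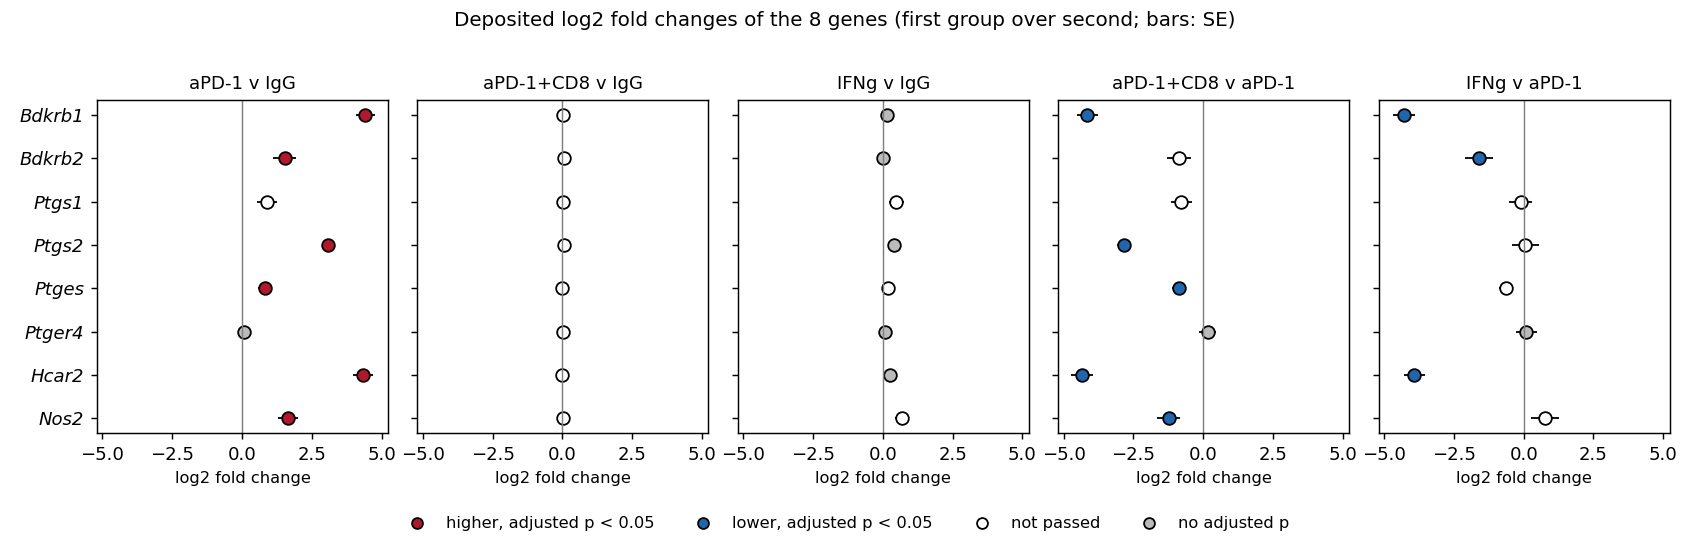
Deposited log2 fold changes of the 8 genes, 1 panel per comparison, with bars for the standard error; red points were higher and blue points lower at an adjusted p under 0.05, white points did not pass and grey points have no adjusted p. Bdkrb1 and Hcar2 stand above 4 in aPD-1 v IgG and at -3.9 or below in both comparisons with aPD-1 as the second group, while the points of aPD-1+CD8 v IgG lie near 0, in a table whose largest absolute log2 fold change is 0.353.

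The B1 receptor gene Bdkrb1 was nearly silent outside the aPD-1 cultures. Its mean normalized count was 70.8 in aPD-1 v IgG, 62.2 in aPD-1+CD8 v aPD-1 and 68.0 in IFNg v aPD-1, but 1.82 in aPD-1+CD8 v IgG and 2.62 in IFNg v IgG, in the authors' deposited tables. The 3 comparisons that hold the aPD-1 samples were thus high and the 2 without them low. The deposited log2 fold change was 4.42 ± 0.34 (SE) for aPD-1 v IgG in the authors' deposited table (adjusted p = 8.0e-36, DESeq2), the fourth highest of 15677 genes. It was -4.15 ± 0.36 in aPD-1+CD8 v aPD-1 (adjusted p = 4.0e-28) and -4.28 ± 0.38 in IFNg v aPD-1 (adjusted p = 1.2e-26), ranking 6 and 5 from the lowest, in the authors' deposited tables. The authors' deposited tables gave 0.00 ± 0.03 in aPD-1+CD8 v IgG (adjusted p = 0.999824) and 0.14 ± 0.20 in IFNg v IgG, which has no adjusted p. Over all genes of aPD-1+CD8 v IgG, the largest absolute log2 fold change was 0.353, and the median SE at mean counts under 10 was 0.0217. Values near 0 with a small SE in that comparison, for Bdkrb1 and the other members, therefore do not show equal levels.

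The mean counts alone set limits on the group levels, because the means of both groups average to the tabled value. After the tables were put on 1 scale, with factors between 0.872 and 1 from 1162 genes that hardly differed in any comparison, the 3 aPD-1 libraries must have averaged at least 139 normalized counts of Bdkrb1 and the 3 IgG libraries at most 4.07. That is a ratio of at least 34.1 between the means, against 21.4 from the deposited fold change. Such limits were added after the data were seen. They cover neither the spread between libraries nor counting error.

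The B2 receptor gene Bdkrb2, the neighbour of Bdkrb1 on chromosome 12, had far lower counts in the 3 comparisons with aPD-1 samples and similarly few in the others. Its mean count was 8.62 in aPD-1 v IgG, 3.18 in aPD-1+CD8 v IgG, 1.86 in IFNg v IgG, 9.06 in aPD-1+CD8 v aPD-1 and 8.28 in IFNg v aPD-1, in the authors' deposited tables. It rose by 1.53 ± 0.41 in aPD-1 v IgG (adjusted p = 0.0022) and was at -1.61 ± 0.50 in IFNg v aPD-1 (adjusted p = 0.012), in the authors' deposited tables. The call in IFNg v aPD-1 is lost at an adjusted p of 0.01, with an empirical null, with Benjamini-Yekutieli adjustment and with a mean count minimum of 10, which leaves 2 members called there, and the call in aPD-1 v IgG is lost with the empirical null and the count minimum. In aPD-1+CD8 v aPD-1 the value was -0.87 ± 0.42 and did not pass (adjusted p = 0.17; 95% interval -1.70 to -0.04), in the authors' deposited table. The limits place the aPD-1 mean at 13.7 or more, the aPD-1+CD8 mean between 3.54 and 7.09, and the IFNg and IgG means at 3.86 or less each. Against IgG, aPD-1+CD8 was at 0.05 ± 0.04 (adjusted p = 0.999824) and IFNg at 0.02 ± 0.18, with no adjusted p, in the authors' deposited tables. The limits allow equal means of aPD-1+CD8 and IgG as well as a higher mean with aPD-1+CD8.

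Ptgs2, which encodes the inducible cyclooxygenase COX-2, had the highest mean count of the 8 in every comparison but aPD-1+CD8 v IgG, where Ptges was slightly above it. Its mean count was 860 in aPD-1 v IgG, 154 in aPD-1+CD8 v IgG, 925 in IFNg v IgG, 761 in aPD-1+CD8 v aPD-1 and 1560 in IFNg v aPD-1, in the authors' deposited tables. Only the comparison without aPD-1 and without IFNg samples was low. Ptgs2 rose by 3.06 ± 0.20 for aPD-1 v IgG in the authors' deposited table (adjusted p = 1.1e-52, DESeq2), and it was at -2.85 ± 0.23 in that of aPD-1+CD8 v aPD-1 (adjusted p = 4.0e-31). Between aPD-1+CD8 and IgG it was at 0.07 ± 0.11 in the authors' deposited table (adjusted p = 0.999824).

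With interferon-gamma, Ptgs2 had a high mean but no call. The limits place the mean at 1590 or more with IFNg and at 1403 or more with aPD-1, against 344 or less in each of aPD-1+CD8 and IgG, so the IFNg mean was at least 4.62 times the IgG mean. The authors' deposited table of IFNg v IgG lists 0.41 ± 0.20 for Ptgs2 with an empty p-value, the mark DESeq2 leaves where a library's count is far from the others. Ptgs2 was 1 of 67 genes so marked there, 65 of them with a fold change above 0, against 43 in IFNg v aPD-1, 39 of them shared but not Ptgs2, 5 in aPD-1 v IgG and 2 in aPD-1+CD8 v IgG. In the direct comparison of IFNg v aPD-1 it was at 0.06 ± 0.49 (adjusted p = 0.97; 95% interval -0.90 to 1.01), in the authors' deposited table. That SE was larger than those of all 200 genes nearest in mean count, whose median was 0.173. The macrophage receptor gene Csf1r carried the same mark in IFNg v IgG, with a mean count of 191 against 24.7 in aPD-1+CD8 v IgG, while Lyz2, another macrophage gene, stood at 52.6 and 60.3 in those authors' deposited tables, and the part of other cells in the Ptgs2 value was not tested.

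Ptgs1, the constitutive cyclooxygenase COX-1, showed no change that passed. Its mean counts in the authors' deposited tables were 24.5 in aPD-1 v IgG, 14.0 in aPD-1+CD8 v IgG, 22.3 in IFNg v IgG, 22.3 in aPD-1+CD8 v aPD-1 and 31.1 in IFNg v aPD-1. The log2 fold changes were 0.90 ± 0.36 in aPD-1 v IgG (adjusted p = 0.065; 95% interval 0.19 to 1.60) and -0.78 ± 0.37 in aPD-1+CD8 v aPD-1 (adjusted p = 0.15), in the authors' deposited tables. With IFNg, Ptgs1 was at 0.48 ± 0.28 over IgG (adjusted p = 0.55) and at -0.11 ± 0.42 over aPD-1 (adjusted p = 0.92), and aPD-1+CD8 was at 0.02 ± 0.07 over IgG, in the authors' deposited tables. A difference in aPD-1 v IgG of the size seen for Ptges is inside its interval there, so a change of Ptgs1 was not detectable here rather than absent.

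Ptges, whose enzyme makes prostaglandin E2 from the cyclooxygenase product, was higher with aPD-1, by a smaller fold than Ptgs2. The authors' deposited tables give mean counts of 265 in aPD-1 v IgG, 163 in aPD-1+CD8 v IgG, 194 in IFNg v IgG, 228 in aPD-1+CD8 v aPD-1 and 265 in IFNg v aPD-1. All 5 lie within a narrow range, and the lowest is again the comparison of aPD-1+CD8 with IgG. Ptges rose by 0.81 ± 0.23 in aPD-1 v IgG (adjusted p = 0.0044) and was at -0.87 ± 0.25 in aPD-1+CD8 v aPD-1 (adjusted p = 0.0050), in the authors' deposited tables. In IFNg v aPD-1 the value of -0.63 ± 0.26 did not pass (adjusted p = 0.076), and in IFNg v IgG it was 0.19 ± 0.21 (adjusted p = 0.87), with -0.03 ± 0.11 in aPD-1+CD8 v IgG, in the authors' deposited tables.

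Promoter sequence was at hand for 5 of the 8 genes, Bdkrb2, Ptgs1, Ptgs2, Ptges and Ptger4, from RefSeq on GRCm38.p6, a later build than the mm9 named for the tables. Those of Ptgs2 and Ptges, which both passed in aPD-1 v IgG, and of Ptgs1, which did not, are shown as 300 bases from 250 before the start of the gene to 50 from it. Capitals mark matches to the motifs searched on both strands, the TATA box (TATAAA), the CRE core (TGACG), AP-1 (TGANTCA), GAS (TTCNNNGAA), the kB motif and C/EBP (TTGCNNAA).
Ptgs2, chr1:150099781-150100080, + strand: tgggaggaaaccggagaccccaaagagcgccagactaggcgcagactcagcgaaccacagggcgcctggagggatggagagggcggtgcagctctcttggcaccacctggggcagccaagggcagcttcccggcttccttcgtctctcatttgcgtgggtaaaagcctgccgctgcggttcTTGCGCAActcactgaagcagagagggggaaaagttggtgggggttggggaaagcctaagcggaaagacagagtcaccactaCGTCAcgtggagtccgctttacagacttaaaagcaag
Ptges, chr2:30903248-30903547, - strand: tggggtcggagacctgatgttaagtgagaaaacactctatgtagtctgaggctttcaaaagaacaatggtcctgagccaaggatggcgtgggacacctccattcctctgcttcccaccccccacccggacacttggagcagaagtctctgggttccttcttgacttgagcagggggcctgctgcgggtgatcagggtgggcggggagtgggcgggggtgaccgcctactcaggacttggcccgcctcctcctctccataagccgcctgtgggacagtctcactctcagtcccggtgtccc
Ptgs1, chr2:36230176-36230475, + strand: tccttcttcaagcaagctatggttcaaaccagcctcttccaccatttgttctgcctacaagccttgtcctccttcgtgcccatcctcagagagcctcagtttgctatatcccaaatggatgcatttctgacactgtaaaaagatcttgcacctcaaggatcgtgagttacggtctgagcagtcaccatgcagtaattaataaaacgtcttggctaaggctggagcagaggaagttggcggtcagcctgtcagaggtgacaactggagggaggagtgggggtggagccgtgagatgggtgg

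The Ptgs2 window held a C/EBP match that begins 69 bases before the start, readable on both strands, and a CRE core on the opposite strand 13 bases after it, and these do not overlap. Among 32851 promoters of this length, 10.8% hold the C/EBP letters and 20.8% the CRE core. The Ptges and Ptgs1 windows, like those of Bdkrb2 and Ptger4, held 0 matches to any of the 6 motifs, where 13.6% of promoters hold the TATA letters, 7.81% AP-1, 8.30% GAS and 8.46% the kB motif. A match is a run of letters and not a measured binding site. Positions are counted from the annotated start, and where transcription begins in these cultures was not measured.

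Ptger4, the EP4 receptor through which prostaglandin E2 raises cAMP, was at the edge of detection. Its mean count lay between 0.609 and 1.03 in the authors' deposited tables, and log2 fold changes lay between 0.02 and 0.16. An adjusted p was given only in aPD-1+CD8 v IgG (0.999824), so no call was possible in the other comparisons.

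Hcar2, the receptor known in mice for the niacin flush, which proceeds through prostaglandins, was, like Bdkrb1, high where aPD-1 samples were included. Its mean counts in the authors' deposited tables were 54.7 in aPD-1 v IgG, 47.5 in aPD-1+CD8 v aPD-1 and 53.2 in IFNg v aPD-1, against 0.425 in aPD-1+CD8 v IgG and 2.28 in IFNg v IgG. As for Bdkrb1, the 3 comparisons that hold aPD-1 samples were high and the others low. The log2 fold change was 4.34 ± 0.36 in aPD-1 v IgG (adjusted p = 1.9e-31, DESeq2), directly after Bdkrb1 in rank, and -4.33 ± 0.39 in aPD-1+CD8 v aPD-1 (adjusted p = 1.2e-26), in the authors' deposited tables. In IFNg v aPD-1 it was -3.92 ± 0.38 (adjusted p = 1.4e-22), in the authors' deposited table. Against IgG, the authors' deposited tables list -0.01 ± 0.01 for aPD-1+CD8 (adjusted p = 0.999824) and 0.26 ± 0.20 for IFNg, where no adjusted p is given. The limits place the IFNg mean of Hcar2 between 3.89 and 4.71 and the IgG mean at 0.948 or less. With a mean count of 0.425 over the aPD-1+CD8 and IgG libraries, no ratio to their level is given.

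**Figure D2:**
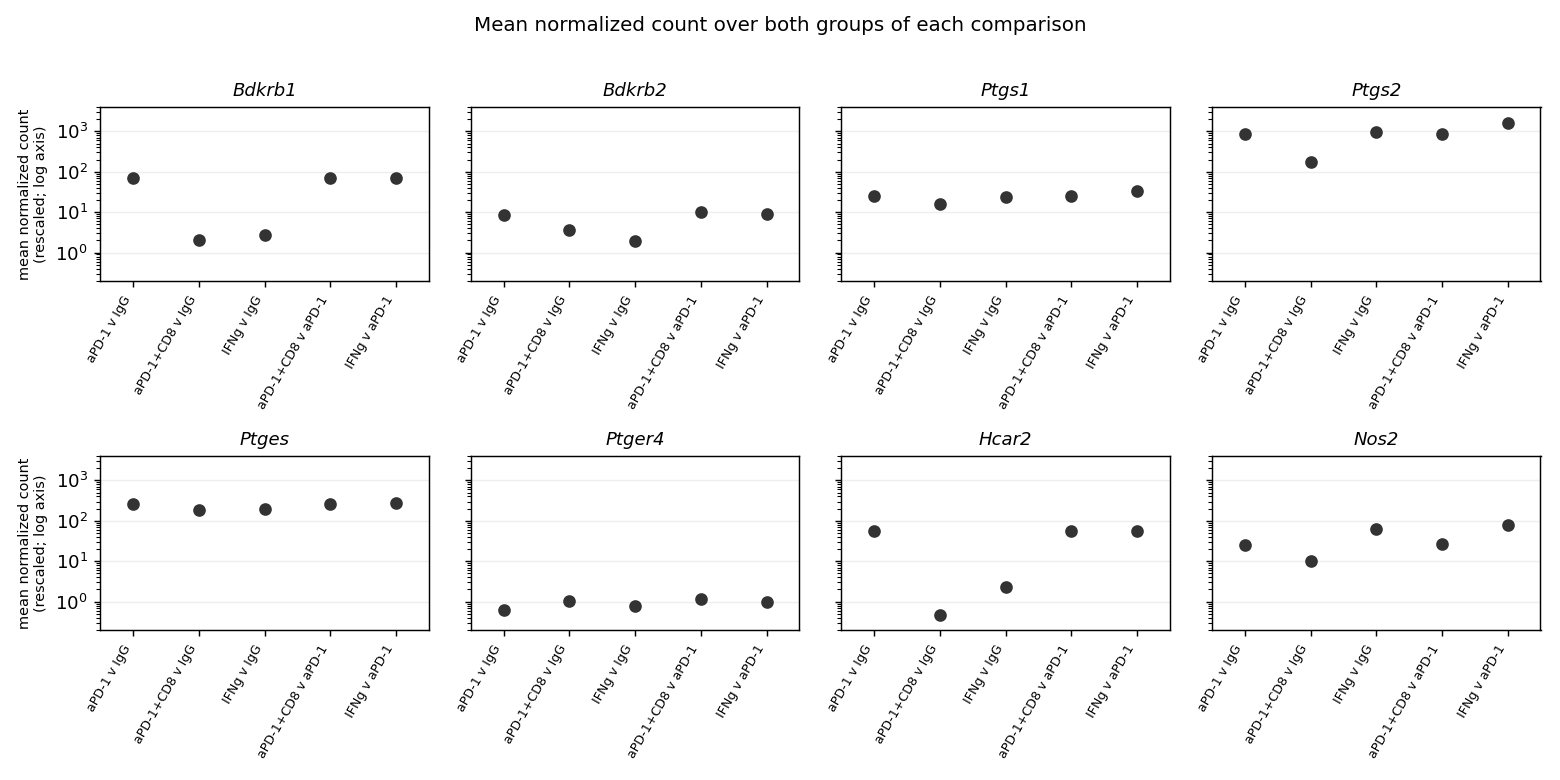
Mean normalized count of each of the 8 genes over both groups of each comparison, after the tables were put on 1 scale, on a shared log axis; each point is 1 deposited mean, with no spread to show. Bdkrb1 and Hcar2 are low in both comparisons without aPD-1 samples, whereas Ptgs2 and Nos2 are lowest in aPD-1+CD8 v IgG and highest in the 2 comparisons that hold IFNg samples.

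Nos2, the inducible nitric oxide synthase, was higher with PD-1 antibody and higher still in its mean with interferon-gamma. Its mean counts in the authors' deposited tables were 25.2 in aPD-1 v IgG, 9.08 in aPD-1+CD8 v IgG, 59.0 in IFNg v IgG, 23.3 in aPD-1+CD8 v aPD-1 and 72.9 in IFNg v aPD-1. The limits place the group means at 33.2 to 50.4 with aPD-1, 3.03 to 20.3 with aPD-1+CD8, 104 to 122 with IFNg and at most 20.3 with IgG. Nos2 rose by 1.64 ± 0.36 in aPD-1 v IgG (adjusted p = 9.5e-05) and was at -1.24 ± 0.40 in aPD-1+CD8 v aPD-1 (adjusted p = 0.019), in the authors' deposited tables. Between aPD-1+CD8 and IgG it was at 0.02 ± 0.05 in the authors' deposited table (adjusted p = 0.999824).

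Although the IFNg mean of Nos2 was at least 5.15 times the IgG mean and at least 2.07 times the aPD-1 mean, neither comparison passed. The authors' deposited tables give 0.69 ± 0.24 in IFNg v IgG (adjusted p = 0.079) and 0.76 ± 0.51 in IFNg v aPD-1 (adjusted p = 0.37; 95% interval -0.23 to 1.75). As with Ptgs2, the SE in IFNg v aPD-1 exceeded those of all 200 genes nearest in count, whose median was 0.281. The deposited fold of 1.61 in IFNg v IgG is far under the ratio of the means; the deposited fold changes appear to be shrunken toward 0.

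**Figure D3:**
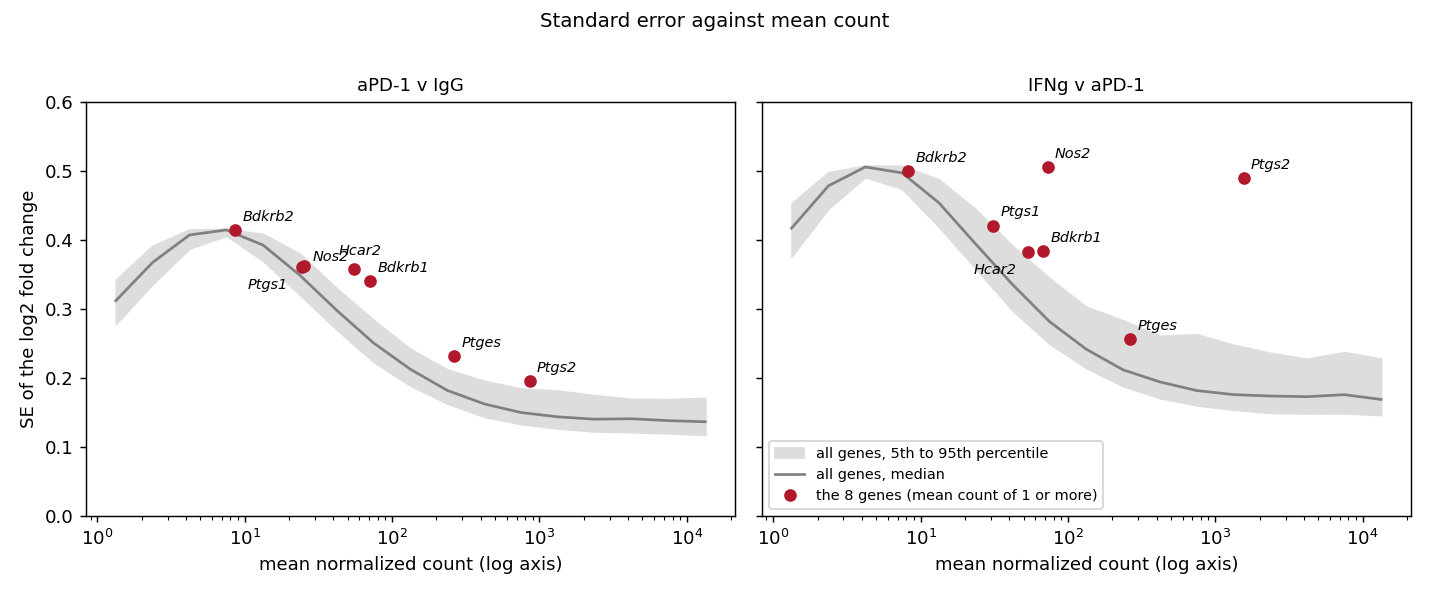
Standard error of the log2 fold change against the mean normalized count, on a log axis, in aPD-1 v IgG and in IFNg v aPD-1; the grey line and band give the median and the 5th to 95th percentile of all genes, and red points are those of the 8 genes with a mean count of 1 or more. Ptgs2 at 0.49 and Nos2 at 0.51 stand clear of the band in IFNg v aPD-1, more than in aPD-1 v IgG, where they were at 0.20 and 0.36. In aPD-1 v IgG the SEs of Hcar2 at 0.36 and Bdkrb1 at 0.34 were wide as well, above those of 100% and 99.5% of the 200 genes nearest in mean count.

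Genes with the most similar profile were sought among 7242 genes whose mean count reached 50 in these tables, by the root mean square difference of the log2 fold change in the 3 comparisons with IgG. Nearest to Bdkrb1 were Pde4b at 0.19, a phosphodiesterase that degrades cAMP, Mmp2 at 0.23, a matrix metalloproteinase, and Igfbp4 at 0.67, and the same 3 genes were nearest to Hcar2, at 0.26, 0.25 and 0.66. Nearest to Ptgs2 were Nr4a2 at 0.11, an orphan nuclear receptor, Fosl2 at 0.17, an AP-1 subunit, and Hgf at 0.20, hepatocyte growth factor. For Nos2 these were Rnf19b at 0.12, Vasn at 0.15 and Pros1 at 0.15. Bdkrb2 had Maged2 at 0.05, Cdh13 at 0.07 and Eva1b at 0.07, and Ptgs1 had Sbno2 at 0.02, Chst2 at 0.03 and Clip2 at 0.05. For Ptges, Tbc1d8b and Aldoa stood at 0.01 and 0.02, with Ap3s1 between them, and for Ptger4, with almost no counts, Crk, Cdc40 and Snrpb2 each stood at 0.01. The 3 comparisons share the IgG samples, and the likeness is a description. It compares deposited fold changes, which appear to be shrunken by different amounts per table. It therefore takes IFNg v IgG at 0.69 for Nos2 and 0.41 for Ptgs2, where the limits on the means give log2 ratios of at least 2.37 and 2.21, and aPD-1+CD8 v IgG, with no absolute value above 0.353, adds little to it.

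The rest of the kinin, prostaglandin, leukotriene and nitric oxide pathways was described from lists of 114 further genes, of which 100 were in at least 1 table. In aPD-1 v IgG 11 of 65 tested genes rose and 9 fell, where 8.50% of all tested genes rose and 10.0% fell, and the median log2 fold change of the tested genes was 0.01. In aPD-1+CD8 v aPD-1 6 of 60 were higher and 11 lower, where 7.82% and 6.94% of all tested genes were, with a median of -0.01. In IFNg v aPD-1 7 of 68 were higher and 11 lower, where 8.39% and 7.13% of all were, with a median of -0.05. In IFNg v IgG 0 of 60 were higher and 1 lower, and in aPD-1+CD8 v IgG 0 of 94 passed.

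**Figure D4:**
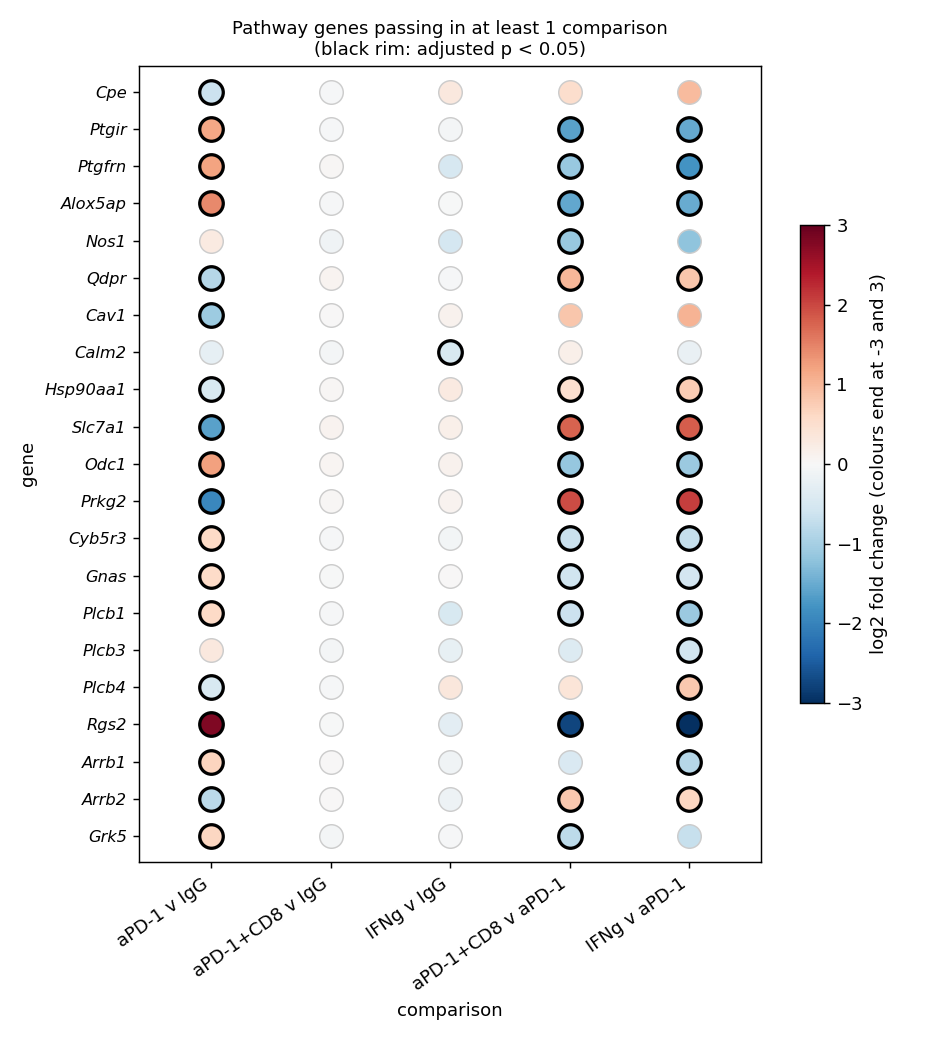
Deposited log2 fold changes of 21 of the 23 pathway genes that passed in at least 1 comparison, by gene and comparison, with red for higher and blue for lower in the first group and a black rim where the adjusted p was under 0.05. Rgs2 is at 2.80 in aPD-1 v IgG and at -3.33 in IFNg v aPD-1.

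Kinin formation and breakdown gave 1 call in 5 comparisons. Of 8 tested genes in aPD-1 v IgG 1 fell, where 10.0% of all tested genes did. It was the carboxypeptidase gene Cpe, at -0.65 ± 0.19 (adjusted p = 0.0068, DESeq2) in the authors' deposited table. The kinin-degrading peptidases Ace, at -0.77, and Xpnpep1, at 0.22, were the lowest and highest of the 7 left without a call in the authors' deposited table. None of the 8 or 9 tested genes passed in the comparisons with aPD-1 as the second group. Of all tested genes, 14.8% passed in aPD-1+CD8 v aPD-1 and 15.5% in IFNg v aPD-1. With so few genes, nothing is read from these counts.

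Release of arachidonic acid and the other prostaglandin synthases gave 0 calls in any comparison. Of 11 tested genes in aPD-1 v IgG, log2 fold changes lay between -0.58 and 0.49, among them Pla2g4a, cytosolic phospholipase A2, which supplies the cyclooxygenases, at 0.33 ± 0.17 in the authors' deposited table. Breakdown and transport of prostaglandins, with 3 tested genes between -0.19 and 0.30, gave 0 calls as well. Over all tested genes 18.5% were called in aPD-1 v IgG, so lists of 11 and 3 genes are too short to read 0 calls as a difference. The members Ptgs2 and Ptges passed, but they were chosen with their calls known, so nothing is read from that contrast.

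Of the prostaglandin receptor list, Ptgir, the prostacyclin receptor, and Ptgfrn, a membrane protein that associates with the prostaglandin F receptor, both rose with aPD-1. They were 2 of 3 tested genes, where 8.50% of all tested genes rose, and the third, at -0.20, did not pass. Of the 7 genes of this list in aPD-1 v IgG, 6 had a mean count under 10. With so few genes, nothing is read from these counts. Ptgir was at 1.15 ± 0.42 (adjusted p = 0.033) and Ptgfrn at 1.20 ± 0.18 (adjusted p = 3.3e-09) for aPD-1 v IgG in the authors' deposited table. In aPD-1+CD8 v aPD-1 they were at -1.62 ± 0.42 and -1.13 ± 0.20, and in IFNg v aPD-1 at -1.53 ± 0.50 and -1.78 ± 0.20, all passing, in the authors' deposited tables. Ptgir rested on a mean count of 8.48 in aPD-1 v IgG and 1.55 in aPD-1+CD8 v IgG, in the authors' deposited tables. Alox5ap, which presents arachidonic acid to 5-lipoxygenase for leukotriene synthesis, rose by 1.45 ± 0.32 in aPD-1 v IgG and was at -1.56 ± 0.35 in aPD-1+CD8 v aPD-1 and -1.51 ± 0.37 in IFNg v aPD-1, in the authors' deposited tables. It was 1 of 2 tested leukotriene genes in aPD-1 v IgG, and the other, Lta4h, was at -0.36 ± 0.15 and did not pass. The 5-lipoxygenase gene Alox5 had no entry there and a mean count of 0.170 in aPD-1+CD8 v IgG, in the authors' deposited tables. A change in leukotriene synthesis was not shown.

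Around nitric oxide synthesis, Qdpr, which regenerates the cofactor tetrahydrobiopterin, fell with aPD-1 while Nos2 rose. Qdpr was at -0.87 ± 0.20 for aPD-1 v IgG in the authors' deposited table. Gch1, the first enzyme of that cofactor's synthesis, was at -0.10 with aPD-1 and at 0.74 with IFNg over IgG without passing, in the authors' deposited tables. Cav1, which binds and restrains the endothelial synthase, was at -1.10 ± 0.20 and Hsp90aa1, a chaperone, at -0.49 ± 0.13 for aPD-1 v IgG in the authors' deposited table. In aPD-1+CD8 v aPD-1, Qdpr and Hsp90aa1 were higher at 1.01 ± 0.24 and 0.51 ± 0.15, and the neuronal synthase Nos1 at -1.13 ± 0.42 was lower, in the authors' deposited table. Calm2, at -0.48 ± 0.14 (adjusted p = 0.016), was the 1 pathway gene that passed in the authors' deposited table of IFNg v IgG.

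The arginine transporter gene Slc7a1 fell while Odc1, which carries arginine-derived ornithine into polyamines, rose. In aPD-1 v IgG they were at -1.64 ± 0.17 (adjusted p = 8.2e-19) and 1.23 ± 0.20 (adjusted p = 1.1e-08) in the authors' deposited table. In aPD-1+CD8 v aPD-1 they were at 1.78 ± 0.23 and -1.15 ± 0.21, and in IFNg v aPD-1 at 1.82 ± 0.20 and -1.11 ± 0.24, in the authors' deposited tables. The arginase genes Arg1 and Arg2 had mean counts of 1.21 and 0.642 for aPD-1 v IgG in the authors' deposited table and no adjusted p. Downstream, Prkg2, a cGMP-dependent kinase, was at -1.95 ± 0.28 in aPD-1 v IgG, 1.95 ± 0.31 in aPD-1+CD8 v aPD-1 and 2.08 ± 0.32 in IFNg v aPD-1, in the authors' deposited tables. Cyb5r3, a reductase that keeps the cGMP-forming nitric oxide receptor in its sensitive state, rose by 0.61 ± 0.15 in aPD-1 v IgG, in the authors' deposited table. Of that receptor's subunit genes, Gucy1a2 had a mean count of 24.9 there and did not pass, at 0.39 ± 0.34. Gucy1a3 and Gucy1b3 had no entry there, and mean counts of 0.186 and 0.339 in aPD-1+CD8 v IgG, in the authors' deposited tables. Expression of the whole receptor was therefore not shown.

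Among 12 genes that couple such receptors to the cell interior, 5 rose and 2 fell with aPD-1, where 8.50% of all tested genes rose and 10.0% fell. Rgs2, which shuts off signalling by Gq proteins, the partners of kinin receptors, was at 2.80 ± 0.27 in aPD-1 v IgG (adjusted p = 2.1e-22), -2.74 ± 0.30 in aPD-1+CD8 v aPD-1 (adjusted p = 1.1e-17) and -3.33 ± 0.32 in IFNg v aPD-1 (adjusted p = 1.7e-23), in the authors' deposited tables. The others that rose for aPD-1 v IgG in the authors' deposited table were Gnas, the stimulatory G protein, at 0.58 ± 0.13, the phospholipase C gene Plcb1 at 0.60 ± 0.19, the arrestin gene Arrb1 at 0.67 ± 0.23 and the receptor kinase gene Grk5 at 0.63 ± 0.19. Arrb2 at -0.82 ± 0.17 and Plcb4 at -0.47 ± 0.15 fell in the same authors' deposited table. A further phospholipase C gene, Plcb3, passed only in the authors' deposited table of IFNg v aPD-1, at -0.57 ± 0.18.

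Genes listed as cell type markers moved with some of these changes. Which cells carried them, and what part they had in these changes, was not tested. Of the fibroblast list 4 of 7 tested genes rose in aPD-1 v IgG, where 8.50% of all tested genes did. Lower were 3 of 7 in aPD-1+CD8 v aPD-1 and 4 of 7 in IFNg v aPD-1, where 6.94% and 7.13% of all were, and in IFNg v IgG 1 of 6 was higher and 2 were lower, where 2.73% and 1.38% of all were. The proteoglycan gene Dcn was at 2.09 ± 0.17 for aPD-1 v IgG in the authors' deposited table. Col1a2, Dpt, Postn and Lum of the same list had mean counts of only 13.5, 4.63, 1.59 and 1.55 there, in the authors' deposited table. A shift in the share of fibroblasts was not tested. The macrophage list had 1 of 13 tested genes higher in aPD-1 v IgG, Cd14, where 8.50% of all were. In IFNg v IgG 1 of 12 tested was lower, Mrc1 at -1.29 ± 0.28, where 1.38% of all were. In IFNg v aPD-1, of 14 tested, Mrc1 was lower at -1.90 ± 0.49 and C1qc higher at 1.44 ± 0.49, where 7.13% and 8.39% of all were, in the authors' deposited tables. The list's summed mean count lay between 198 and 240 in the 3 comparisons without IFNg samples. It lay between 367 and 393 in the 2 with them, where Csf1r alone was at 182 and 191. Of the endothelial list 1 gene reached a mean count of 10, Cdh5, which encodes the cadherin of endothelial junctions. Cdh5 was at 1.49 ± 0.28 in aPD-1 v IgG (adjusted p = 2.4e-06), at -1.42 ± 0.31 in aPD-1+CD8 v aPD-1 (adjusted p = 0.00012) and at -0.68 ± 0.36 in IFNg v aPD-1, which did not pass (adjusted p = 0.22), in the authors' deposited tables. The other endothelial markers listed had mean counts between 0.127 (Emcn) and 1.18 (Pecam1) for aPD-1 v IgG in the authors' deposited table. Of the mast cell list, Hdc, which makes histamine, rose by 1.68 ± 0.40 for aPD-1 v IgG in the authors' deposited table at a mean count of 13.3. Kit, the stem cell factor receptor of mast cells, was at 0.50 ± 0.39 with a mean count of 3.35 and did not pass there (adjusted p = 0.44, in the authors' deposited table). The other 7 genes of that list had no entry under their symbols in any of the 5 comparisons. Of the neutrophil list 1 gene, Mmp9, which tumour and stromal cells also make, reached a mean count of 10, and S100a8 stood at 1.43 for aPD-1 v IgG in the authors' deposited table.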

How the data were processed

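RNA of 12 cultures, 3 per group, was sequenced after exome capture, per the labels' protocols, and the authors used DESeq2 and the mm9 build, per the submitters' processing notes. No aligner and no version of that tool were found there. The authors deposited 5 tables of comparisons, each with a mean normalized count (a signal scaled by size factors within that table), its log2 fold change, the SE of that, the Wald score (their ratio) and the raw and adjusted p-values. Columns of single samples were 0 in number, so no spread per group, depth per library or leave-one-out value could be computed. The deposited score, p and Benjamini-Hochberg adjusted p were recomputed and checked. Genes without an adjusted p count as not tested. Members and pathway and marker lists were chosen with earlier results of these data known. All members were named, as was each pathway gene that passed an adjusted p of 0.05 in any comparison (2 of the 23 are not reported here), and the 3 genes nearest each member by log2 fold change. Deposited values come from tables scaled separately, so levels across tables were rescaled over genes with mean counts of at least 100 and log2 fold changes under 0.2 in size. Alternatives were a threshold of 0.01, a minimum log2 fold change of 1, a mean count of at least 10, Benjamini-Yekutieli adjustment and an empirical null. The adjustment steps were tested on simulated data. Protein identity between members was not computed. Python 3.11.15, pandas 2.3.3, numpy 2.4.6, scipy 1.17.1 and matplotlib 3.10.9 were used.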

Additional observations from a re-analysis of the deposited data

How the results depend on the processing

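No paired analysis was possible because the deposited tables hold comparisons and no sample columns, and for the same reason no replicate could be left out. Of the 8 genes, 3 were called in aPD-1 v IgG with an empirical null, against 6 at an adjusted p of 0.05, and 3 in aPD-1+CD8 v aPD-1 with an empirical null or Benjamini-Yekutieli adjustment, against 5. No call of Bdkrb1, Hcar2 or Ptgs2 was lost under these settings. Each setting changes only the threshold, so it cannot turn a direction. Of 14 member calls over the 5 comparisons, 6 were lost with the empirical null, 3 with Benjamini-Yekutieli adjustment and 2 each at 0.01, at a log2 fold change of at least 1 and at a mean count of at least 10. Of pathway genes in aPD-1 v IgG, 9 reached a log2 fold change of 1 and 7 passed the empirical null, against 20. In IFNg v IgG the 1 call became 0 at 0.01, at the fold minimum and with Benjamini-Yekutieli adjustment. In aPD-1+CD8 v aPD-1 the counts were 10 at the fold minimum, 6 with the empirical null and 11 with Benjamini-Yekutieli adjustment, against 17. In IFNg v aPD-1 they were 8, 6 and 11 in the same order, against 18. The cause was not tested. Group levels of at least 10 counts numbered 19 from the deposited fold changes, and 12 by arithmetic lower limits, a choice made after seeing the data. Without values per library, the depth behind low counts is unknown.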
